A study of Mus musculus with 22 samples.

Results

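The genes described here are the WNT pathway genes of the urogenital sinus epithelium: 58 genes, out of 30102 that had a probe set naming a single gene on the array. They were taken by symbol. All genes of the Wnt, Fzd, Sfrp, Dkk and Rspo families were included, together with the co-receptors Lrp5 and Lrp6, the R-spondin receptors Lgr4, Lgr5 and Lgr6, the ubiquitin ligase Znrf3, the secreted inhibitors Wif1 and Notum, the secretion factors Porcn and Wls, and the intracellular proteins Axin1, Axin2, Nkd1, Nkd2, Lef1, Tcf7l1 and Tcf7l2. By role there were 19 ligands, 2 secretion factors, 12 receptors, 8 genes of the R-spondin module, 10 secreted inhibitors and 7 intracellular genes. Of the 58, 52 lay above the array median on at least 5 arrays and were tested among 19050 genes. The other 6 were dim. Tcf7, Rnf43 and Ctnnb1, which the selection also names, had no probe set of that symbol alone and were not analysed here.

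The urogenital sinus is the fetal tube below the bladder from which prostatic buds grow in males, and its epithelium was taken from C57BL/6J fetuses of both sexes at E16.75. In knockouts 1 copy of Shh carried Cre and Sox9 was floxed on both chromosomes (ShhCre/+; Sox9fl/fl). Their littermate controls lacked Cre and had a single floxed Sox9 copy (Shh+/+; Sox9+/fl). There were 6 male control, 6 male knockout, 5 female control and 5 female knockout arrays, each giving log2 values of total RNA. Knockouts therefore differed from controls in Sox9 and also in the Cre insertion at Shh, and the contributions of these alleles cannot be told apart. Cre was driven by Shh, a gene of the sinus epithelium. The replicates are called biological, but whether each came from 1 fetus or from several pooled is not said, and p-values reflect only how much these arrays varied. In tissue RNA of this kind, fewer cells of a type and less RNA per cell cannot be told apart.

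WNT ligands are lipid-modified by Porcn and carried to the cell surface by Wls. They bind Frizzled receptors together with Lrp5 or Lrp6, and this stops a complex built on Axin1 or Axin2 from destroying beta-catenin, which then enters the nucleus and acts with LEF1 and TCF proteins. Several of the genes switched on in this way limit the signal again: Axin2, Nkd1 and Nkd2 inside the cell, Znrf3 at the membrane, and Notum and Dkk1 outside it. Beta-catenin in the sinus epithelium is known to be needed for the growth of prostatic buds.

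The promoters of 3 members that were higher in males in both genotypes, Axin2, Lef1 and Tcf7l2, are shown because they held letters that DNA-binding proteins of this system are known to recognise. Each is the RefSeq sequence of the 250 bases before an annotated start in GRCm38.p6, read 5′ to 3′ on the plus strand, which is the strand of all 3 genes. Capitals mark matches, on either strand, to the TCF and LEF letters (CTTTGAA or CTTTGAT and also CTTTGTA or CTTTGTT) and to the partial androgen response element AGAACA. The lines cover chr11:108920099-108920348 for Axin2, chr3:131112541-131112790 and chr3:131156044-131156293 for the 2 Lef1 starts, and chr19:55895071-55895320 for 1 of the Tcf7l2 starts.
Axin2: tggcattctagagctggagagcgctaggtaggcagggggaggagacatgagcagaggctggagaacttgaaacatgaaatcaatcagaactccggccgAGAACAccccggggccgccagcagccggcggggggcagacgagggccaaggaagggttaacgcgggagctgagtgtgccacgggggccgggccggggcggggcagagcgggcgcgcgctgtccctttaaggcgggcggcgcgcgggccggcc
Lef1, upstream start: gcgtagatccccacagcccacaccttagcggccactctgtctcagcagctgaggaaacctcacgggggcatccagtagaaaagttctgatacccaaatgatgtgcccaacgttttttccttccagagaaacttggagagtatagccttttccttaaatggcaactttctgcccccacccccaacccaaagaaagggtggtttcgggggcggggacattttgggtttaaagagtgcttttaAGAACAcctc
Lef1, downstream start: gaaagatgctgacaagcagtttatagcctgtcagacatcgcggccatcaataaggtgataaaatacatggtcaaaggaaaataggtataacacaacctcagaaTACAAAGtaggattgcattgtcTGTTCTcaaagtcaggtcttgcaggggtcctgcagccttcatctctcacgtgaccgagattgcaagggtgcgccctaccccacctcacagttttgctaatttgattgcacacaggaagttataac
Tcf7l2: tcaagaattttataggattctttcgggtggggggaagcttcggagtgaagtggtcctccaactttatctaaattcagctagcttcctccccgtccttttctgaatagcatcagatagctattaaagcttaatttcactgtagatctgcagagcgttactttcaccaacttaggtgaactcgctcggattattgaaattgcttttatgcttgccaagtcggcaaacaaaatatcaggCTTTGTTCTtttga

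In the Axin2 line AGAACA begins 152 bases before the start. The upstream Lef1 line holds it 10 bases before the start. The downstream Lef1 line holds TACAAAG, the reverse complement of CTTTGTA, at 147 bases, and TGTTCT, the reverse complement of AGAACA, at 125 bases. In the Tcf7l2 line CTTTGTT at 14 bases and TGTTCT at 11 bases overlap. A Tcf7l2 promoter further upstream, at chr19:55741560-55741809, held neither and is not shown. It held ATTGTT, the reverse complement of AACAAT. RefSeq promoters were matched for 37 of the 58 genes, 44 promoters in all. The TCF and LEF letters were in 6 of these 44 (13.6%) and in 14.8% of all 32851 promoters. AGAACA was in 7 of 44 (15.9%) and in 16.1% of all promoters. The full androgen response element, AGAACA and TGTTCT with any 3 bases between them, was in 0 of 44 and in 0.00913% of all. The SOX letters AACAAT were in 3 of 44 (6.82%) and in 9.42% of all. Of the 10 promoters of 6 members higher in males, 4 held AGAACA, 2 the TCF and LEF letters and 1 the SOX letters, and the 3 promoters of members lower in males held none of these. The 44 promoters of the members thus held these letters at shares close to those of all promoters. For AGAACA the share in the 10 promoters of members higher in males was 40.0%, against 16.1% of all. That share rests on few promoters and was not tested. The 4 promoters were 1 of Axin2, 1 of Tcf7l2 and 2 of Lef1, so starts of the same gene were counted apart. The members were picked by their calls in these data, and nothing is drawn from this share.

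With the sex labels taken as given, Sox9 served as the check of the genotype labels. It ranged from 9.05 to 9.61 (median 9.33) in male controls and up to 8.37 (median 8.31) in male knockouts, and fell by 1.07 on the log2 scale (adjusted p = 1.04e-07 with limma) in males and by 1.00 (adjusted p = 2.28e-06) in females, from 8.77 to 9.05 in controls to 7.81 to 7.99 in knockouts. Shh fell by 0.45 in males and by 0.56 in females (adjusted p = 0.00874 and 0.0128). The Shh call was lost in males with array weights (adjusted p = 0.0517). In females it was lost without female control 3 or 5 or female knockout 1 or 4 (adjusted p up to 0.0734), and with only the female arrays in the fit (0.199). All 12 epithelial markers lay above the array median on every array, with means from 11.39 to 11.56. Mesenchyme markers, 12 of 14 of which had a probe set, had means from 5.90 to 6.35 on the other 21 arrays and 6.98 on male control 6. On every array 9 to 10 of these 12 also lay above the array median. So did 9 to 11 of 11 smooth muscle markers and 6 to 7 of 8 immune markers, so RNA of other cell types was not absent from any array. The part of these markers in the results below was not tested. Member calls that were lost without male control 6 are named as such, and differences without it are given for Dkk3 and Nkd2.

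Male and female epithelium differed in the WNT pathway, and Axin2 and Lef1, both targets of beta-catenin signalling, showed the largest differences among the members called. In controls 8 of 52 members were higher in males (Axin2, Lef1, Tcf7l2, Znrf3, Notum, Wnt4, Wnt6 and Fzd4) and 5 were lower (Sfrp1, Fzd6, Lgr4, Wnt3 and Wnt16), which is 25% of the members, against 6.94% of all genes tested (3.27% higher and 3.67% lower). In knockouts 7 were higher and 5 lower, 23.1% of the members against 7.19% of all genes (3.66% higher and 3.52% lower). Marker genes also differed between the sexes. Of 12 epithelial markers, 2 were lower in control males (Krt18 by 0.28 and Krt14 by 0.30 on the log2 scale), and in knockouts Krt8, Krt18 and Krt14 were lower and Foxa1 was higher. Of 9 mesenchyme markers tested, Dcn was lower in control males (-0.36) and Lum higher in knockout males (0.57). In controls 7 of these 9 had positive differences (median 0.08), as had 8 of 10 smooth muscle markers (0.12) and 2 of 2 endothelial markers (0.21). In knockouts 3 of 9, 4 of 10 and 2 of 2 were positive (medians -0.01, -0.01 and 0.06). All 6 urothelial and all 7 tested immune markers had negative differences in knockouts (medians -0.22 and -0.15), none of them called by limma, and in controls 4 and 2 did. The part of these markers in the members' differences was not tested. The counts of members and markers are limma calls at an adjusted p under 0.05 (Benjamini-Hochberg over all 19050 genes, two-sided). The arrays of the sexes did not overlap for 9 of 52 members in each genotype (17.3%), against 5.64% of all genes in controls and 5.82% in knockouts. Without male control 6 the control comparison gave 9 calls and the knockout comparison 13. With median centring the 13 control calls became 6 higher and 3 lower, and the 12 knockout calls 8 higher and 2 lower. The all-gene control calls went from 623 higher and 699 lower to 584 higher and 363 lower. The all-gene knockout calls went from 698 higher and 671 lower to 591 higher and 427 lower.

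The differences between the sexes in controls and in knockouts were taken from separate arrays. Their calls were not independent, because the same limma fit over all arrays gave each gene a shared variance. Leaving out a male control could therefore change a knockout call, as it did for Porcn. In the control and knockout comparisons 10 members were called in both, which is 76.9% of the 13 control calls and 83.3% of the 12 knockout calls. Among all genes 810 were called in both, 61.3% of the control calls and 59.2% of the knockout calls. All 10 had the same direction in both genotypes: Axin2, Lef1, Tcf7l2, Znrf3, Notum, Wnt4 and Fzd4 were higher in males, and Sfrp1, Fzd6 and Lgr4 were lower. Of all 52 members 38 had the same sign in both, and of all genes 68.0%. The median log2 difference over the members was 0.00 in controls and 0.01 in knockouts, against -0.01 for all genes in each, so the members differed in both directions around a centre near that of the array.

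**Figure D1:**
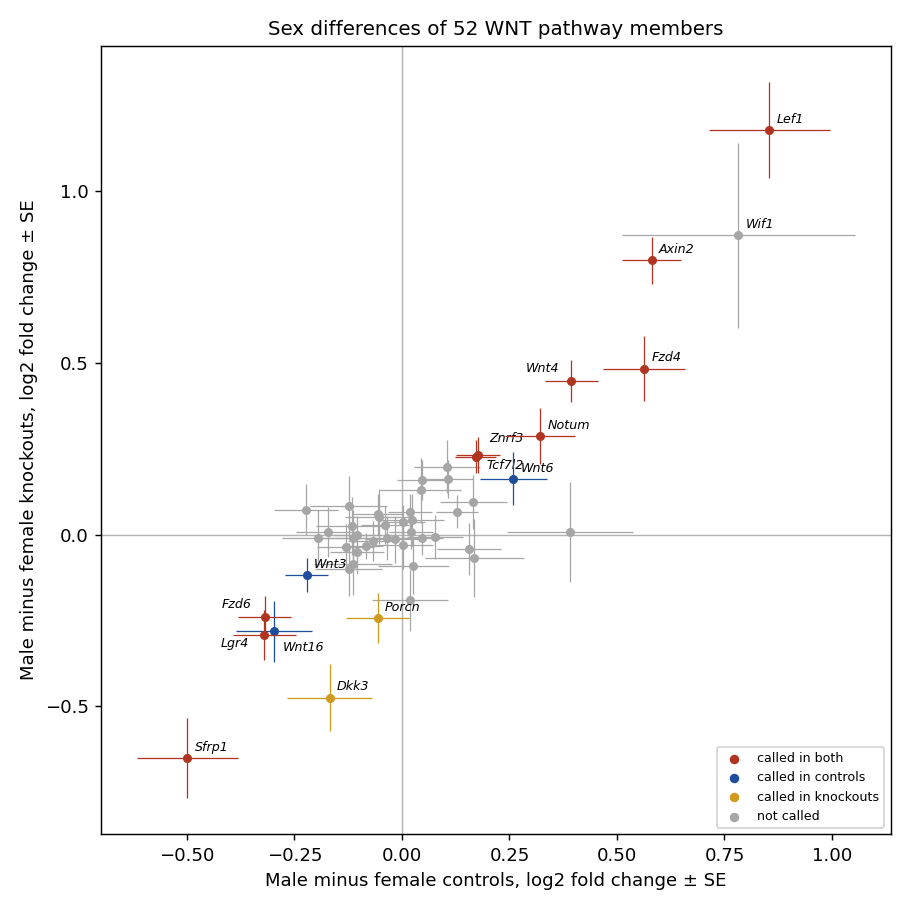
Male minus female log2 fold change of each of the 52 tested members in controls (horizontal axis) and knockouts (vertical axis), with bars of 1 standard error. Colours give the limma call; the 10 members called in both genotypes have the same sign on both axes, with Lef1 at 0.85 and 1.18 and Sfrp1 at -0.50 and -0.65.

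Among the 18 ligands tested, Wnt4, a ligand known for its part in female reproductive tract development, was higher in males. It measured 8.97 to 9.30 (median 9.09) in male controls, and 8.79, 8.76, 8.68, 8.70 and 8.65 in female controls. In male knockouts it measured 8.94 to 9.26 (median 9.17), and in female knockouts 8.68, 8.84, 8.62, 8.71 and 8.58. No female array reached the lowest male array of either genotype. The difference was 0.39 ± 0.06 (SE) in controls and 0.45 ± 0.06 in knockouts (limma adjusted p = 0.000147 and 2.60e-05).

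Wnt3, a ligand of the beta-catenin branch, was lower in male controls, at 5.01 to 5.27 against 5.28 to 5.45 in female controls. The difference was -0.22 (limma adjusted p = 0.00679). It was a dim gene, above the array median on 17 of 22 arrays. The call was lost with quantile normalization and median centring (adjusted p = 0.0592 and 0.0760). In knockouts the difference was -0.12, and the groups overlapped.

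Wnt16 was also lower in male controls, at 6.43 to 6.56 against 6.64 to 6.97, by 0.30 on the log2 scale (limma adjusted p = 0.0427). In knockouts its difference of -0.28 had an adjusted p of 0.0558. The control call was close to the threshold. It was lost without any 1 of the 6 male controls, without female control 1 or 5, male knockout 2 or female knockout 5 (adjusted p from 0.0504 to 0.137), and under 4 other settings. The knockout difference was called without male knockout 1 or 6 or female knockout 3 (adjusted p from 0.00944 to 0.0398), and with the replicate block (0.0221). Wnt6 was higher in male controls by 0.26 (limma adjusted p = 0.0446), and its groups overlapped, at 7.69 to 8.02 and 7.42 to 7.80. Its call was lost without male control 2, 3, 4 or 6, female control 1, 2 or 5, male knockout 3 or female knockout 1, 3 or 5 (adjusted p from 0.0518 to 0.152), and under 6 other settings.

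The other 14 ligands tested were not called between the sexes. They included Wnt5a, a ligand of the beta-catenin independent branch, at 7.40 to 7.78 in male controls and 7.29 to 7.62 in female controls. Its difference was called with 1 setting, array weights (0.22, adjusted p = 0.0457). Over all 18 ligands the median difference was -0.06 in controls and -0.01 in knockouts. The ligand Wnt8b was dim on every array, at 3.96 to 4.27, and was not tested.

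Of the 2 secretion factors, Porcn, the acyltransferase that attaches the lipid to WNT proteins, was lower in male knockouts than in female knockouts. It ran from 6.69 to 7.19 in the males and measured 7.26, 7.18, 7.21, 7.11 and 6.99 in the females, so the groups overlapped. The difference of -0.24 ± 0.07 (SE) had a limma adjusted p of 0.0433. The call was lost when any 1 of 11 arrays was left out: male control 2, 3 or 5, male knockout 2, 4, 5 or 6, and female knockout 1, 2, 3 or 4 (adjusted p from 0.0512 to 0.119). It was also lost under 5 other settings. Wls, the WNT carrier, differed by 0.05 in controls and -0.01 in knockouts and was not called.

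Of the 12 receptors, Fzd4, which also binds the non-WNT ligand Norrin, was higher in males. It measured 7.70 to 8.06 (median 7.90) in male controls, and 7.30, 7.23, 7.48, 7.44 and 7.14 in female controls. In male knockouts it measured 7.59 to 7.96 (median 7.69), and in female knockouts 7.24, 6.84, 7.34, 7.36 and 7.44. The sexes did not overlap in either genotype, and female knockout 2 was the lowest array. The difference was 0.56 ± 0.10 (SE) in controls, 1.48-fold, and 0.48 ± 0.10 in knockouts, 1.40-fold (limma adjusted p = 0.000364 and 0.00173).

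Fzd6, a receptor known for planar polarity of the skin, went the other way. Male controls measured 9.74 and upwards (median 9.84) and female controls 9.98 to 10.30, and male knockouts 9.75 to 10.05 against 10.02 to 10.18 in females. The arrays overlapped slightly in both genotypes. The difference was -0.32 in controls and -0.24 in knockouts (limma adjusted p = 0.00138 and 0.0153). The knockout call was lost with median centring (adjusted p = 0.0703).

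The other 10 receptors, among them Lrp5 and Lrp6, were not called. Fzd9 was lower in male controls by 0.22 with an adjusted p of 0.0757. Male controls measured 6.39 to 6.91 and female controls 6.78 to 6.94. This difference was called without male control 4 (-0.28, adjusted p = 0.0115) and with array weights (adjusted p = 0.0238), and in knockouts it was 0.07. The median difference over the 12 receptors was -0.04 in controls and 0.03 in knockouts.

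In the R-spondin module, which controls how many Frizzled receptors stay at the membrane, Lgr4 and Znrf3 differed in opposite directions. Lgr4, a receptor for R-spondins, measured 7.60 to 7.97 (median 7.73) in male controls, and 8.26, 8.14, 7.98, 8.06 and 8.01 in female controls. In male knockouts it measured 7.53 to 7.88 (median 7.74), and in female knockouts 7.89, 8.08, 7.97, 8.07 and 8.07. All females lay above all males of their genotype, by a narrow gap. The difference was -0.32 in controls and -0.29 in knockouts (limma adjusted p = 0.00715 and 0.0134), and the knockout call was lost with median centring (adjusted p = 0.0518).

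Znrf3, the ubiquitin ligase that removes Frizzled receptors, was higher in males by 0.18 in controls and 0.23 in knockouts (limma adjusted p = 0.0381 and 0.00499). Male controls measured 9.69 to 9.86 against 9.46 to 9.69 in female controls, and male knockouts 9.59 to 9.86 against 9.49 to 9.60. Single arrays overlapped in each genotype. The control call was lost without male control 1, 5 or 6 or female control 1, 2, 3 or 5 (adjusted p from 0.0572 to 0.128), and under 5 other settings. The knockout call was kept under all 9 alternatives and without each of the 22 arrays in turn.

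Lgr5, an R-spondin receptor and stem cell marker, differed by 0.02 in controls and by -0.19 in knockouts and was not called. The knockout difference was called without female knockout 1, the lowest of the 5 (-0.27, adjusted p = 0.0492). Lgr6, Rspo1 and Rspo4 were not called. The ligands Rspo2 and Rspo3 were dim, at 4.36 to 4.74 and 4.29 to 5.54, and were not tested.

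Among 7 secreted inhibitors tested, Sfrp1, a Frizzled-related protein that binds WNT ligands, was lower in males. It measured 7.03 to 7.78 (median 7.29) in male controls, and 7.99, 7.65, 7.79, 7.80 and 7.89 in female controls. In male knockouts it measured 6.79 to 7.35 (median 7.04), and in female knockouts 7.46, 7.87, 7.63, 7.84 and 7.60. Male control 1, at 7.78, overlapped the female controls, while the knockouts did not overlap. The difference was -0.50 ± 0.12 (SE) in controls and -0.65 ± 0.12 in knockouts, 1.41-fold and 1.57-fold lower in males (limma adjusted p = 0.00833 and 0.000615).

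Notum, the enzyme that strips the lipid from WNT proteins, was higher in males by 0.32 in controls and 0.29 in knockouts (limma adjusted p = 0.0150 and 0.0305). Male controls ran from 6.52 to 7.07, female controls measured 6.50 to 6.70, and the overlap came from male control 2 at 6.52. Male knockouts, at 6.80 to 7.13, lay above all female knockouts, at 6.52 to 6.78. The knockout call was lost without male knockout 1, 2 or 5 or female knockout 1, 3 or 4 (adjusted p from 0.0529 to 0.0934), and under 2 other settings.

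Dkk3, a divergent member of the Dickkopf family, was lower in male knockouts than in female knockouts. Male knockouts measured 7.12 to 7.43 (median 7.22), and female knockouts 7.62, 8.10, 7.57, 7.64 and 7.69, with no overlap. The difference was -0.48 ± 0.10 (SE; limma adjusted p = 0.00270). In controls it was -0.17 (adjusted p = 0.374), and -0.25 without male control 6 (adjusted p = 0.0994).

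Wif1, a secreted protein that binds WNT ligands, varied widely within groups. Male controls ran from 7.18 to 8.83 (median 8.20) and female controls measured 6.80, 6.91, 7.43, 7.50 and 7.68, while male knockouts ran from 7.56 to 8.98 (median 8.47) and female knockouts measured 7.35, 7.90, 7.35, 7.40 and 7.74. The groups overlapped in both genotypes. The difference of 0.78 ± 0.27 (SE) in controls and 0.87 ± 0.27 in knockouts had limma adjusted p-values of 0.0892 and 0.0529. In controls it was called without male control 1 or 2 (adjusted p from 0.0269 to 0.0428) or with array weights (0.0385). In knockouts it was called without male control 1, 2, 5 or 6 or male knockout 4 (adjusted p as low as 0.0119), and under 4 other settings. Dkk1, Sfrp2 and Sfrp5 were not called. Dkk2, Dkk4 and Sfrp4 were dim, at 4.44 to 6.70, 4.77 to 5.34 and 4.04 to 4.43, and were not tested.

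The intracellular genes held the 2 members with the largest sex differences among those called. Axin2, the scaffold protein whose transcription is a standard readout of beta-catenin signalling, measured 8.06 to 8.26 (median 8.18) in male controls, and 7.32, 7.43, 7.71, 7.80 and 7.62 in female controls. In male knockouts it measured 8.14 to 8.37 (median 8.23), and in female knockouts 7.40, 7.48, 7.48, 7.36 and 7.53. Every male array lay above every female array. The difference was 0.58 ± 0.07 (SE) in controls (95% interval from 0.44 to 0.72) and 0.80 ± 0.07 in knockouts, 1.74-fold (limma adjusted p = 4.57e-06 and 3.97e-08).

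Lef1, the transcription factor that carries beta-catenin to its target genes, measured 6.69, 6.55, 6.76, 6.71, 6.90 and 7.02 in male controls, and 5.76, 5.76, 6.21, 6.06 and 5.81 in female controls. In male knockouts it measured 7.37, 7.08, 7.05, 6.56, 7.44 and 7.62, and in female knockouts 6.03, 6.32, 5.80, 5.94 and 5.94. All males were again above all females. The difference was 0.85 ± 0.14 (SE) in controls, 1.81-fold, and 1.18 ± 0.14 in knockouts, 2.26-fold (limma adjusted p = 0.000268 and 4.10e-06).

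Tcf7l2, the related factor, showed a smaller difference in the same direction, 0.17 in controls and 0.23 in knockouts (limma adjusted p = 0.0289 and 0.00314). Male knockouts, at 9.01 to 9.19, lay above all female knockouts, which started at 8.82 and had a median of 8.89. Male controls, at 8.93 to 9.11, overlapped female controls, at 8.81 to 8.96. The control call was lost without male control 2, 3, 5 or 6 or female control 2, 3 or 5 (adjusted p from 0.0532 to 0.0879), with the replicate block (0.0819) and with only the control arrays in the fit (0.0669). Axin1, which unlike Axin2 is not induced by the pathway, differed by 0.00 in controls and 0.04 in knockouts. Tcf7l1 differed by 0.08 and -0.01 and was not called.

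Of 8 feedback targets of the pathway that were tested (Axin2, Lef1, Nkd1, Nkd2, Lgr5, Notum, Znrf3 and Dkk1), 4 were higher in males and 0 lower in each genotype, where 3.27% of all genes were higher and 3.67% lower in controls and 3.66% and 3.52% in knockouts. The 4 were Axin2, Lef1, Notum and Znrf3 in both. The median difference over all 8 was 0.25 in controls and 0.18 in knockouts, against -0.01 for all genes. In a second list of 12 further targets, described below, 3 were called higher in males and 1 lower in each genotype. The differences of the 12 as a whole did not lean toward males. Of these 12, 5 had a positive difference in controls (median -0.02) and 6 in knockouts (median 0.00). The feedback inhibitors Nkd1 and Nkd2 differed by 0.16 and 0.39 in controls, not called, and by -0.04 and 0.01 in knockouts. Nkd2 was called in controls without male control 5 (0.47, adjusted p = 0.0496) and was at 0.26 without male control 6 (adjusted p = 0.262). These targets were grouped by known function, and nothing particular to the group is drawn from the counts.

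**Figure D2:**
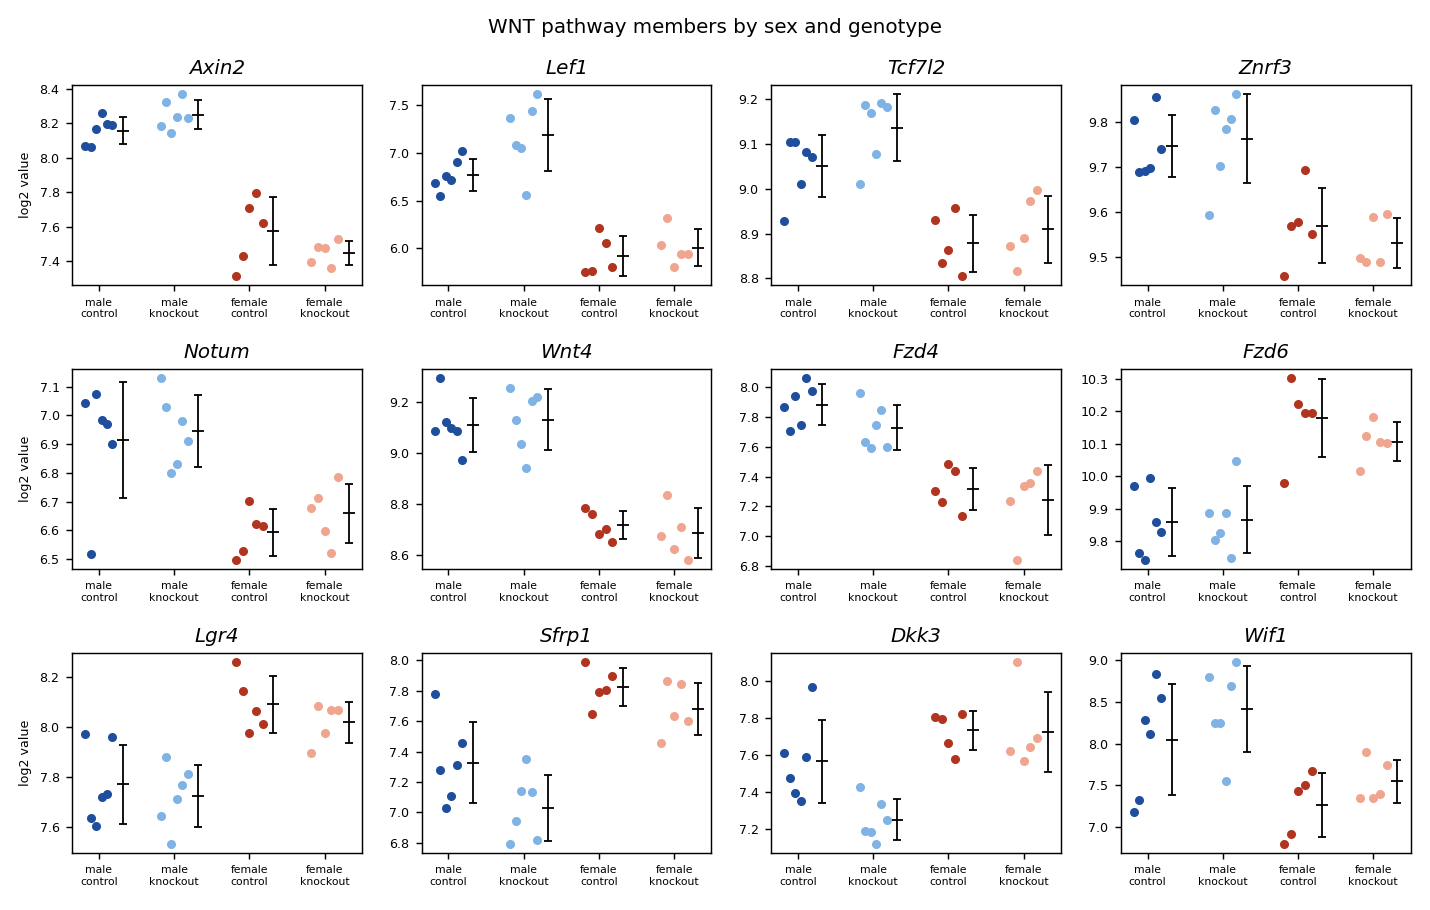
Log2 value of 12 members on each array (points), with the group mean and 1 standard deviation beside them, for 6 male control, 6 male knockout, 5 female control and 5 female knockout arrays; vertical axes do not start at 0 and differ between panels. Axin2 and Lef1 are above every female array in all males, Sfrp1 is lower in males, and Wif1 spreads widely within each group.

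Between knockouts and controls no member passed the threshold in either sex. In males 0 of 52 members were called by limma, against 0.199% of all genes (38 genes), and 7 had an unadjusted p under 0.05, 13.5% against 6.27% of all genes. In females 0 were called, against 0.0315% of all genes (6 genes), and 1 had an unadjusted p under 0.05, 1.92% against 5.46%. Averaged over the sexes 0 were called, against 0.247% of all genes, and 6 of the 52 had an unadjusted p under 0.05, as did 7.19% of all genes. No member had control and knockout arrays that did not overlap, in males (0.420% of all genes) or in females (1.39%). The differences ran from -0.31 to 0.41 in males and from -0.14 to 0.28 in females.

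The intervals limit how large a change could have been missed. The 95% interval of the knockout difference lay within 0.5 of 0 on the log2 scale for 47 of 52 members in males, the exceptions being Dkk3, Lef1, Nkd2, Sfrp1 and Wif1. In females it did so for 51, the exception being Wif1. All 52 lay within 1 of 0 in both sexes. For Axin2 the interval ran from -0.04 to 0.23 in males and from -0.27 to 0.02 in females.

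**Figure D3:**
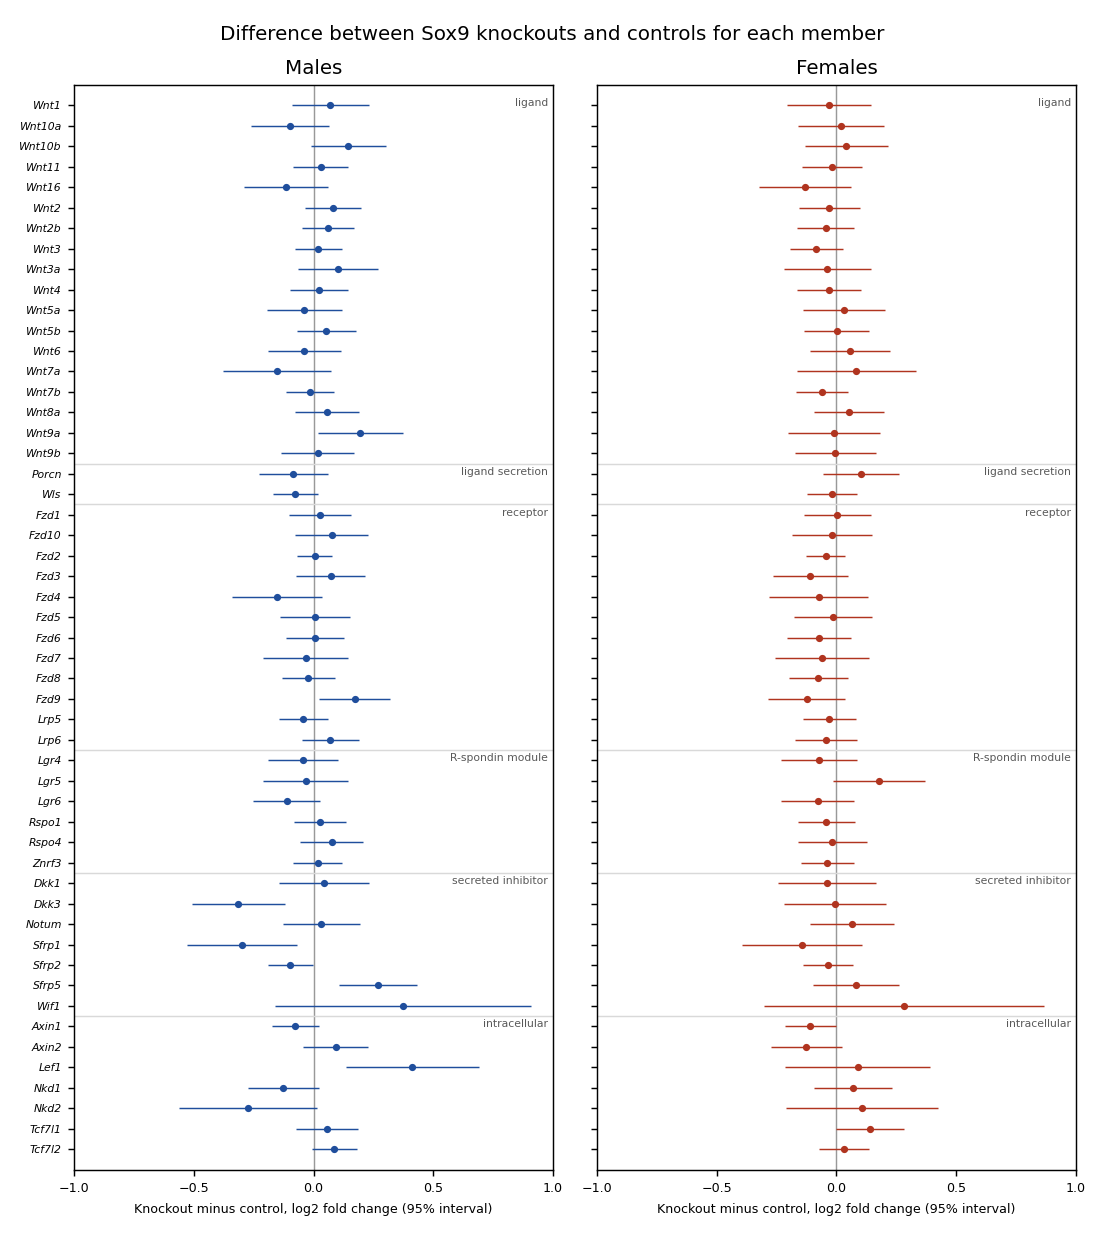
Knockout minus control log2 fold change of the 52 tested members, ordered by role, with 95% intervals from the limma fit, in males (left) and females (right). Every point lies between -0.31 and 0.41, and Wif1 has the widest interval in both sexes.

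By role, the 18 ligands ranged from -0.15 to 0.20 in males and from -0.13 to 0.08 in females, and the 12 receptors from -0.15 to 0.17 and from -0.12 to 0.00. The ligand of smallest p in males was Wnt9a, at 0.20 (limma adjusted p = 0.715), and in females Wnt3, at -0.08 (0.986). The receptor Fzd9 was at 0.17 in males (adjusted p = 0.683) and -0.12 in females (0.984). Wnt4 and Fzd4, which differed between the sexes, were at 0.02 and -0.15 in males and at -0.03 and -0.07 in females. Porcn and Wls were at -0.08 each in males and at 0.10 and -0.02 in females. In the R-spondin module Lgr5 had the smallest p in females, at 0.18 (adjusted p = 0.932), with female controls at 7.31 to 7.48 and female knockouts at 7.27 to 7.79.

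Of the secreted inhibitors, Sfrp5, a WNT-binding protein, had the smallest p in males. Male controls measured 6.07 to 6.35 (median 6.24) and male knockouts 6.29 to 6.72 (median 6.45), with overlap, and the difference was 0.27 ± 0.08 (SE), with a limma adjusted p of 0.355. In females it was 0.08. Dkk3 measured 7.35 to 7.97 (median 7.53) in male controls and 7.12 to 7.43 (median 7.22) in male knockouts, a difference of -0.31 ± 0.09 (limma adjusted p = 0.378). Without male control 6, where mesenchyme markers were high and Dkk3 was at 7.97, it was -0.23 (adjusted p = 0.611), and in females it was -0.01. Sfrp1 was at -0.30 in males and -0.14 in females (adjusted p = 0.629 and 1.00).

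Lef1 was the intracellular gene nearest to the threshold in males. Male knockouts reached 7.62 against at most 7.02 in male controls, but male knockout 4, at 6.56, lay among the lowest controls, so the groups overlapped. The difference was 0.41 ± 0.13 (SE; limma adjusted p = 0.467). Without male knockout 4 it was 0.54, and Lef1 was then called (adjusted p = 0.0412). No other alternative or array left out gave a call of a member between knockouts and controls. In females Lef1 was at 0.09. Axin1 had the smallest p of the members in females, at -0.11 (limma adjusted p = 0.904), and was at -0.08 in males. Nkd2 was at -0.28 in males and at -0.15 without male control 6.

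The knockout difference was compared between the sexes by an interaction term. No member was called (0 of 52, against 0.00525% of all genes, 1 gene), and 3 had an unadjusted p under 0.05 by limma, 5.77% against 4.04% of all genes. These were Fzd9, at 0.30 ± 0.11 (SE), Axin2, at 0.22 ± 0.10, and Dkk3, at -0.31 ± 0.14, with an adjusted p of 0.997 each. The same term compares the sex difference in knockouts with that in controls. Calls made in a single genotype, for Wnt3, Wnt16, Wnt6, Dkk3 and Porcn, are therefore not shown to differ between genotypes.

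**Figure D4:**
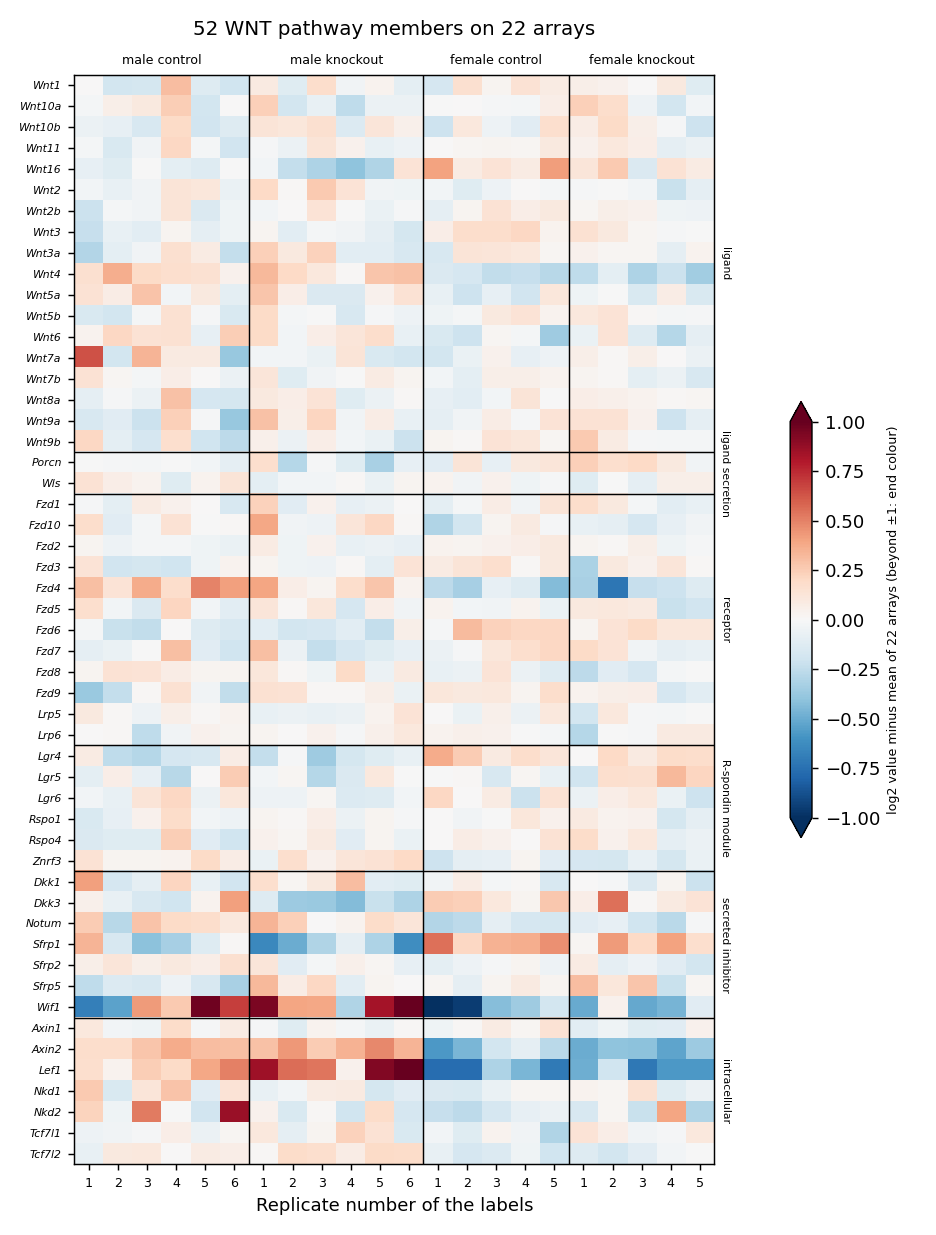
Log2 value of each of the 52 tested members on each of the 22 arrays, minus the member's mean over all arrays, with members grouped by role and columns grouped by sex and genotype; values beyond ±1 take the end colour. The rows of Axin2, Lef1, Wnt4 and Fzd4 are higher in the male than in the female columns, and no member has control and knockout arrays that are apart in either sex.

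Genes of the wider pathway that are not among the 58 were followed through 5 lists with 93 genes, of which 83 were tested. Between the sexes 15 were called in controls (9 higher and 6 lower in males), 18.1% against 6.94% of all genes, and 16 in knockouts (9 higher and 7 lower), 19.3% against 7.19%. With median centring these were 8 higher and 3 lower in controls and 9 higher and 4 lower in knockouts. Without male control 6, 12 were called in controls, with Kremen2, Celsr2 and Rhoa lost, and 16 in knockouts. Over all arrays, 13 were called in both, 86.7% of the control calls and 81.2% of the knockout calls, all in the same direction, against 61.3% and 59.2% for all genes. Of the 13, 6 kept both calls under all alternatives and arrays left out (Bambi, Myc, Tnfrsf19, Id2, Tle1 and Tle4), and 7 lost a call in at least 1 setting. The lost calls were those of Kremen2, Cthrc1 and Gpc3 in controls, of Ror1, Nfatc2 and Tle3 in knockouts, and of Camk2b in both. Of these, single arrays decided the control call of Kremen2 (any 1 of 8 arrays) and the knockout calls of Camk2b (8 arrays), Nfatc2 (7) and Ror1 (5). The control calls of Cthrc1 and Camk2b were each lost without either of 2 arrays. The 24 tested genes of the destruction complex and cytoplasm, among them Apc, Gsk3b and the Dishevelled genes, gave 0 calls by limma in all 6 comparisons, and between the sexes 4 of them had an unadjusted p under 0.05 in controls and 5 in knockouts, as did 19.1% and 17.2% of all genes. Among 12 further targets, Bambi, Tnfrsf19, Id2 and Myc were called in both genotypes, and among 13 nuclear cofactors Tle1, Tle3 and Tle4, corepressors that bind LEF1 and TCF proteins, where 6.94% of all genes were called in controls and 7.19% in knockouts.

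Bambi, a pseudoreceptor that dampens BMP and TGF-beta signalling and is a known beta-catenin target, was lower in males, opposite to Axin2 and Lef1. Male controls measured 8.46 to 9.10 (median 8.68) and female controls 9.73 to 10.18, and male knockouts 8.58 to 9.55 (median 8.73) against 10.01 to 10.35. The sexes did not overlap, and the difference was -1.20 ± 0.14 (SE) in controls and -1.31 ± 0.14 in knockouts (limma adjusted p = 5.75e-06 and 1.46e-06). Tnfrsf19, a receptor of the TNF family, was higher in males by 0.50 and 0.56, Id2 by 0.43 and 0.54, and Tle4 by 0.46 and 0.58. In knockouts Myc was higher in males by 0.65 and Gpc3 lower by 0.32 (limma adjusted p = 0.000137 and 0.000719). Nfatc2 was lower in control males by 0.38 (limma adjusted p = 0.000518). Tle3 was lower in males by 0.29 on the log2 scale in controls (limma adjusted p = 1.27e-05), and by 0.17 in knockouts, a call lost with median centring (adjusted p = 0.0951).

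Between knockouts and controls 1 of the 83 was called in males, 0 in females and the same 1 on average, where 0.199%, 0.0315% and 0.247% of all genes were called. Igfbp4, a binding protein of insulin-like growth factors that also inhibits WNT receptors, fell in males. Male controls measured 8.64 to 9.06 (median 8.76) and male knockouts 8.25 to 8.39 (median 8.32), with no overlap. The difference was -0.51 ± 0.07 (SE), 1.42-fold lower (limma adjusted p = 0.00127), against -0.09 in females. The interaction had an adjusted p of 0.997, so the 2 sexes are not shown to differ.

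Male control 6 stood apart in some members as it did in mesenchyme markers. It was above all 21 other arrays for 5 of the 58 members: Dkk2, Rspo3, Nkd2, Sfrp2 and Wnt6. The share of all genes that were highest on this array was not computed, so nothing particular to the members is drawn from this count. Dkk2 was at 6.70 there and at 4.69 to 5.01 in the other male controls, and Rspo3 at 5.54 against 4.50 to 4.78. Nkd2 was at 6.94 against 5.88 to 6.60. Other members were lower on this array than in all other male controls. Among them were Wnt4, at 8.97 against 9.09 to 9.30, Wnt7a, at 5.86 against 6.05 to 6.87, and Wnt9a, at 6.46 against 6.62 to 7.07. The smooth muscle markers, 11 genes, had a mean of 7.06 on this array and 6.01 to 6.35 on the others. Endothelial markers, 6 genes, also stood apart there, with a mean of 5.53 against 4.60 to 4.97 on the other 21 arrays. Neither Dkk2 nor Rspo3 was tested, since both were dim elsewhere.

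**Figure D5:**
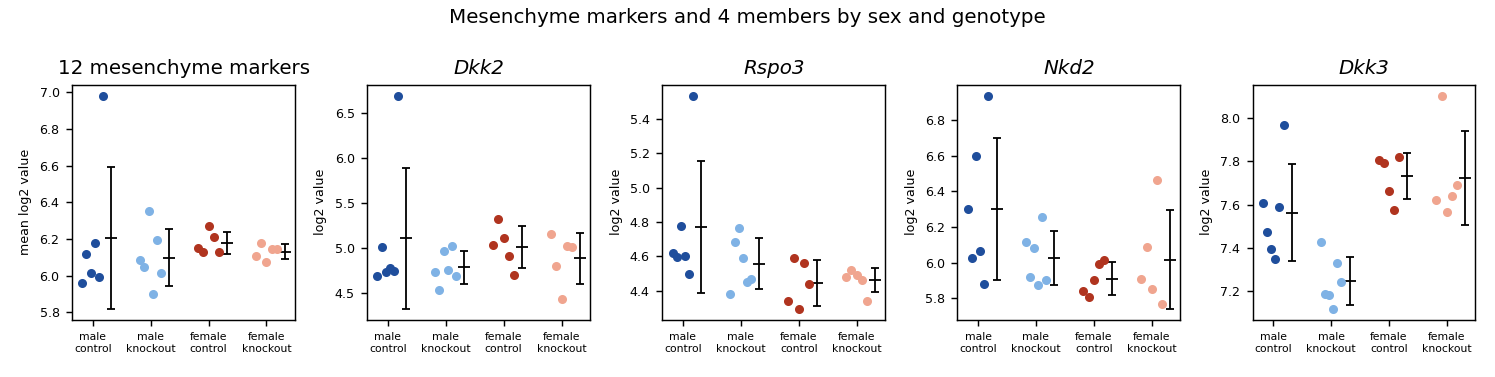
Mean log2 value of 12 mesenchyme markers and log2 values of Dkk2, Rspo3, Nkd2 and Dkk3 on each array (points), with the group mean and 1 standard deviation. Male control 6 is the topmost male control in all 5 panels, at 6.98 for the markers and 6.70 for Dkk2.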

How the data were processed

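Total RNA of 22 samples of dissected epithelium was hybridised to Affymetrix whole-transcript arrays, 1 per sample. Before this came trypsin and collagenase digestion and removal of mesenchyme, bladder and urethra, per the labels' protocols. The authors deposited 1 table of log2 values for 72688 probe sets, 65770 of them transcript clusters; the log2 scale was read from the values (1.59 to 14.23), and no source used here names the software or the normalization. Array medians lay between 5.10 and 5.27. Precision is limited by how many arrays there were, with median standard errors of 0.065 for the male, 0.071 for the female and 0.068 for the sex comparisons.

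Probe sets were named from the platform annotation: 30604 had 1 symbol, 2146 several (not used), and 33185 transcript clusters were not listed. Genes were kept if above the array median on at least 5 arrays, with the probe set of highest mean per gene. Every member had 1 probe set. limma 3.58.1 (R 4.3.3) fitted 4 group means over all 22 arrays with default eBayes (18 residual and 4.34 prior degrees of freedom) for 6 comparisons: knockout against control in males, females and on average, male against female within each genotype, and the interaction. Adjustment was by Benjamini-Hochberg over 19050 genes, called under 0.05. The program was tested on simulated data.

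Members were chosen by symbol, and members and lists were chosen with earlier results of these data known. Members named with values are those called in any comparison, the 2 of smallest p per role and comparison, and the main feedback targets, with Wnt5a chosen after its values were seen. Other pathway genes are those called, up to 6 per comparison by smallest p, and the others named with Bambi to complete a count. Cell type markers were 7 lists (mesenchyme, smooth muscle, epithelium, urothelium, endothelium, immune, and neural crest and neurons). No covariate was fitted, since no litter or scan is given per array. Alternatives were quantile normalization, median centring, no dim filter, the dim filter at the 75th percentile, probe sets averaged per gene, trend and robust eBayes, the replicate block, array weights, only the groups compared, and each array left out. No pair of arrays shared over 0.0334% of identical values. Promoters came from a RefSeq table of GRCm38.p6.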

Additional observations from a re-analysis of the deposited data

Results flagged for a closer look

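Dixon's criterion was applied to 33 genes, the 31 members described by rule with Sox9 and Shh, in each of the 4 groups, 132 sets of values, and 8 single arrays stood far from the rest of their group. Chance alone marks about 1 in 20 such sets at the 95% criterion. Each value is given here with the range of the other arrays of its group.

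Dkk3 was at 8.10 in female knockout 2, against 7.57 to 7.69 in the other 4. Without that array its male minus female difference in knockouts was -0.38, the smallest size over the arrays left out in turn, and it kept its call. Fzd3 was at 8.00 in female knockout 1, against 8.33 to 8.44. Fzd8 was at 7.06 in female control 3, against 6.80 to 6.87. Notum was at 6.52 in male control 2, against 6.90 to 7.07, and without it the difference between control males and females was 0.40. Porcn was at 6.93 in male control 6, against 6.99 to 7.01. Rspo4 was at 6.39 in male control 4, against 5.94 to 6.03. Wnt10b was at 6.91 in male control 4, against 6.52 to 6.65, and at 6.58 in male knockout 4, against 6.76 to 6.87. Male control 4 and male knockout 4 thus each stood apart in Wnt10b, in opposite directions. The causes were not tested.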

How the results depend on the processing

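Under 9 alternatives and with each of the 22 arrays left out in turn, none of 25 called sex differences of members changed sign; Wnt3 and Wnt16 in controls were fitted under 8 of the 9, as the 75th percentile filter removed both. Axin2, Fzd4, Lef1, Sfrp1 and Wnt4 kept their calls throughout in both genotypes; each genotype kept 8 calls throughout. Called members numbered 9 to 14 in controls over the alternatives and 9 to 13 with an array left out, and 10 to 13 and 10 to 13 in knockouts. Between knockouts and controls the members called stayed at 0 in males, in females, on average and for the interaction, except for 1 (Lef1) in males without male knockout 4, a range of 0 to 1. No pairing of arrays by replicate number was seen, though correlations of this kind cannot exclude it. Deviations of 31 same-numbered pairs correlated from -0.42 to 0.28 (median -0.03), 4 of them over 0.1. Those of 150 other pairs ran from -0.37 to 0.30 (median 0.00). With the replicate block 10 members were called in controls, all among the 13, and 11 in knockouts, 10 of them among the 12. Over all genes the male knockout comparison gave 20 calls with only the groups compared, against 38, the female 3 with median centring or only the groups compared and 11 with array weights, against 6 (2 to 8 with an array left out), and the average 72 with array weights, against 47. The interaction gave 0 under 4 alternatives (quantile normalization, median centring, no dim filter, trend and robust eBayes) and 2 with the replicate block or array weights, against 1. The causes were not tested. The dim members could not be tested on these arrays.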
